A study of Mus musculus with 12 samples.

Results

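The high mobility group (HMG) genes measured here comprise 10 genes of the HMGA, HMGB and HMGN subfamilies, out of 17576 genes in the deposited table. They were taken by symbol: Hmga1, Hmga1b and Hmga2, then Hmgb1, Hmgb2 and Hmgb3, then Hmgn1, Hmgn2, Hmgn3 and Hmgn5. All 10 passed the filter on low values (at least 1 in at least 3 libraries). The family was selected on earlier differences between these libraries: those of Hmga1b and Hmgn5 in the knockdown against either control, and that of Hmgb2 in the overexpression against 5NC. These values, and other differences of the same genes that share libraries with them, are given as a description, without a test. The calls of the other members are no independent support.

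The RNA was total RNA of C18-4, a line of mouse spermatogonial stem cells (strain labelled IRC mouse) that had received virus. The groups, each of 3 libraries and 4 in all, were 8276OV (overexpression of the long noncoding RNA lncRNA8276), 8276KD (its inhibition), and the labels 5NC and 3NC, which the design text lists beside overexpression and inhibition and which were read as their respective control viruses. All groups carry a virus, and no label gives an uninfected group, a time after infection or separate cultures. The spread behind each p-value is that between libraries and may be technical only. The level of lncRNA8276 was not analysed here, so it does not check the labels.

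Column sums ranged from 533099 to 561940 FPKM (fragments scaled for transcript length and library size, a unit read from the values). Pearson's r of log2(value + 1) was 0.993 to 0.998 within groups and 0.951 to 0.988 between groups. Of 14 germ cell and spermatogonial markers in the table, 13 stayed below 1 in all 12 libraries, and Uchl1 was at 73.0 to 139. Of 8 Sertoli markers 4 reached 1 in at least 3 libraries, with Wt1 at 49.0 to 62.8, and 5 of 6 peritubular myoid markers did so. Of 4 Leydig markers 1 reached 1 in at least 3 libraries and of 5 macrophage markers 1 did. The summed level of the germ cell list, nearly all of it Uchl1, was 74.0 to 82.8 in 3NC, 90.1 to 94.3 in 5NC, 119 to 140.2 in 8276KD and 74.0 to 85.4 in 8276OV. That of the Sertoli list, most of it Wt1, was 60.4 to 62.6, 66.1 to 68.4, 68.8 to 74.4 and 58.1 to 60.4. The myoid sums were 78.9 to 83.4, 84.2 to 89.0, 68.3 to 79.2 and 67.1 to 77.2 in the same order, the Leydig sums 0.85 to 1.38, 1.1 to 1.27, 1.18 to 2.03 and 1.32 to 1.63, and the macrophage sums 5.39 to 6.89, 2.64 to 3.17, 3.34 to 4.04 and 2.13 to 3.01. Their part in the results on HMG genes was not tested. In bulk RNA, fewer cells with a transcript and less of it per cell cannot be told apart.

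HMG proteins are small, abundant chromatin proteins that bind DNA or nucleosomes without reading a long sequence. HMGA proteins grip the minor groove of AT-rich DNA with short AT hooks, are high in embryonic and transformed cells and low in most adult tissue. HMGB proteins bend DNA with HMG boxes and carry an acidic tail, and HMGB2 is prominent in the testis and in dividing cells. HMGN proteins bind the nucleosome core particle and counteract compaction by linker histones.

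Relative to 3NC the subfamilies differed in direction. Summed HMGA transcripts were highest in 3NC, and summed HMGB and HMGN transcripts were lowest there. In 5NC against 3NC, 3 HMGA genes fell and 6 of the other 7 members rose, so that 9 of 10 were called at an adjusted p below 0.05, against 56.5% of the 11360 genes tested (30.6% higher and 25.9% lower). In 8276KD against 3NC, 3 HMGA genes fell and 6 others rose (9 of 10 called, against 39.4% of all genes, 20.0% higher and 19.5% lower). In 8276OV against 5NC, 6 members rose and 3 fell, Hmga1, Hmga1b and Hmgn1 (9 of 10 called, against 74.4% of all genes, 30.3% higher and 44.1% lower). The median log2 difference of the members was 0.20, 0.36 and 0.28 in these comparisons, and that of all genes was 0.022, -0.0048 and -0.088. Nothing is read from these counts, since the members were chosen with these comparisons known and large shares of all genes were called. The counts and medians include Hmga1b, Hmgn5 and Hmgb2, on whose values the family was selected. The first 2 comparisons share the 3NC libraries, and the first and the last share 5NC.

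**Figure D1:**
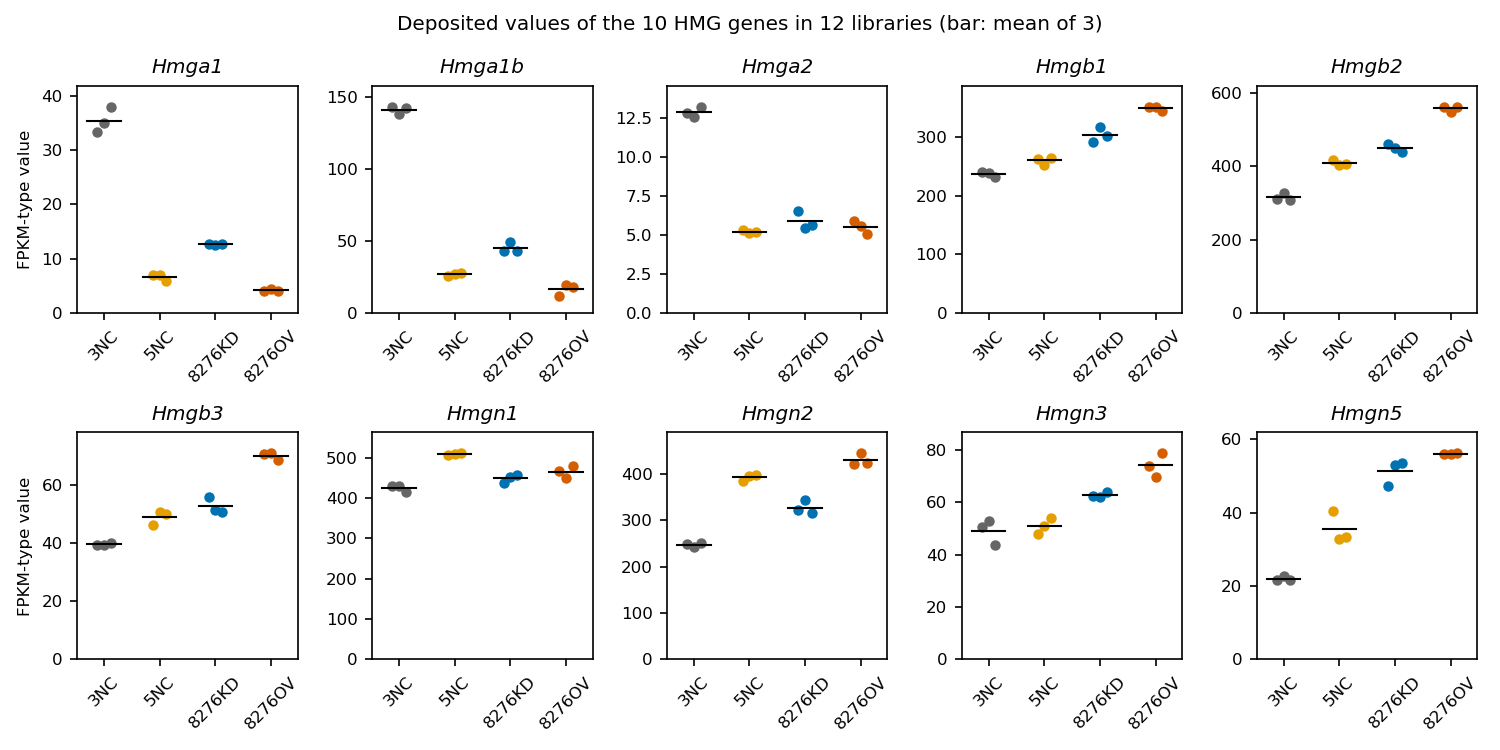
Deposited FPKM-type values (vertical axes, each from 0) of the 10 genes in each of the 12 libraries, by group. Points are libraries and bars are means of 3. Hmga1 runs from 35.4 in 3NC to 4.22 in 8276OV, while Hmgb2 runs from 315 to 557 in the same groups.

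Hmga1 encodes the AT-hook protein HMGA1 (gene 15361, chromosome 17, 27556574 to 27563672, GRCm38). Its values were 33.3, 34.9 and 38.0 in 3NC, 6.97, 7 and 5.85 in 5NC, 12.7, 12.6 and 12.7 in 8276KD, and 4.03, 4.49 and 4.13 in 8276OV. The 3NC libraries were high, the 8276OV libraries were lowest, and no 2 groups overlapped. The mean was 8.39 times higher in 3NC (35.4 ± 2.39, SD, n = 3) than in 8276OV (4.22 ± 0.242).

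Hmga1b is annotated as a separate gene close in sequence to Hmga1, on chromosome 11 (gene 111241, 120762794 to 120764392). It stood at 143, 138 and 142 in 3NC, at 25.9, 26.8 and 27.6 in 5NC, at 42.8, 49.35 and 42.8 in 8276KD, and at 12.1, 19.3 and 17.7 in 8276OV. The order of the groups was that of Hmga1, again without overlap, and the means of 3NC (141 ± 2.75) and 8276OV (16.4 ± 3.79) differed 8.63 times. Replicate 1 of 8276OV was the lowest of all libraries for both genes.

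The transcripts of the pair are close to each other. Of the 100-base words in the longest Hmga1b transcript, 78.8% occur in Hmga1, and 59.9% of the words of Hmga1 occur in Hmga1b. How the authors assigned reads that fit both genes is not given in the sources used here. Hmga1b held 80.0% ± 1.13, 80.2% ± 2.04, 78.0% ± 1.499 and 79.1% ± 3.53 of the summed value of the pair in 3NC, 5NC, 8276KD and 8276OV, while the sum itself went from 177 ± 3.58 in 3NC to 33.4 ± 0.495 in 5NC, 57.6 ± 3.69 in 8276KD and 20.6 ± 3.98 in 8276OV. The split between the 2 genes is therefore uncertain. The sum is given beside it, and it too depends on how shared reads were counted, which was not tested. Fitted as a single row, the sum was at -2.37 in 5NC against 3NC (log2 scale, SE 0.0997), and at -0.69 in 8276OV against 5NC (SE 0.0997). In 8276KD against 3NC it was at -1.60 (SE 0.0997).

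The 250 bases before a RefSeq start of each gene of the pair (GRCm38.p6; for Hmga1 the first of its 2 starts) are shown because the transcripts are near copies while the sequence before them is not. This Hmga1 window of 300 bases, of which 50 follow the start, is 74.0% G and C with 40 CpG dinucleotides, its other window is 72.3% with 38, and the Hmga1b window is 51.3% with 8. The median of 32851 such RefSeq windows is 52.7% with 7 CpG.
Hmga1, chr17:27556324-27556573, plus strand: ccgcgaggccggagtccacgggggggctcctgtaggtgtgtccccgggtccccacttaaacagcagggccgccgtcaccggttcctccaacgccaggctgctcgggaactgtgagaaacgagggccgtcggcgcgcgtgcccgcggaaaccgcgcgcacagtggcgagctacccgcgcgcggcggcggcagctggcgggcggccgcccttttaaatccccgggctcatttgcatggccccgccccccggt
Hmga1b, chr11:120762544-120762793, plus strand: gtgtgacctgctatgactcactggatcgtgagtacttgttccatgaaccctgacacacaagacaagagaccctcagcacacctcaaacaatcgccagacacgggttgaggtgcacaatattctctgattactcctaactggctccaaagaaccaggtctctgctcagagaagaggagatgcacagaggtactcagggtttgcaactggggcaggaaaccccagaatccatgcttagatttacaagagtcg
No letters are capitalised in the pair, since the motif marked in the HMGB windows further on is absent from these bases.

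Hmga2 encodes the second AT-hook protein, an embryonic factor and a classic target of let-7 microRNAs (gene 15364, chromosome 10, 120361268 to 120476469). Its values were 12.8, 12.6 and 13.2 in 3NC, 5.34, 5.10 and 5.18 in 5NC, 6.54, 5.46 and 5.67 in 8276KD, and 5.91, 5.56 and 5.05 in 8276OV. The 3NC libraries stood apart at 2.47 times the mean of 5NC, and the other groups formed a narrow band in which 5NC overlapped 8276OV and 8276OV overlapped 8276KD. None of its 100-base words occurs in another annotated transcript.

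Hmga1 and Hmga2 fell by 2.26 and 1.16 on the log2 scale in 5NC against 3NC (SE 0.0699 and 0.0690, adjusted p = 2.08e-11 and 1.09e-08). Hmga1b was at -2.36 there (SE 0.119), given without a test. Among 11360 genes, Hmga1 held place 6 from the lowest difference, with much of its sequence shared with Hmga1b. In 8276KD against 3NC the differences were -1.41 (SE 0.0699) for Hmga1, -1.63 (SE 0.119) for Hmga1b and -1.01 (SE 0.0690) for Hmga2.

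The knockdown difference turned with the control. Against 5NC, Hmga1 was at 0.85 in 8276KD (SE 0.0699) and Hmga1b at 0.73 (SE 0.119), opposite in sign to the values against 3NC. Both are given without a test, since Hmga1 shares much of its sequence with the selected Hmga1b. Hmga2 was at 0.15 (adjusted p = 0.0851). In 8276OV against 5NC, Hmga1 fell by 0.54 (SE 0.0699, adjusted p = 1.22e-05). Hmga1b was at -0.70 there (SE 0.119), given without a test, since its 5NC values entered the selection. Hmga2 was at 0.066 there (SE 0.0690, adjusted p = 0.397), and with quantile normalization it was called at 0.24 (adjusted p = 0.00820). Against 3NC the 8276OV differences were -2.80, -3.06 and -1.095 for Hmga1, Hmga1b and Hmga2. The HMGA falls in 8276OV against 5NC did not hold after correction for GC content, which the values by GC content show further on.

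**Figure D2:**
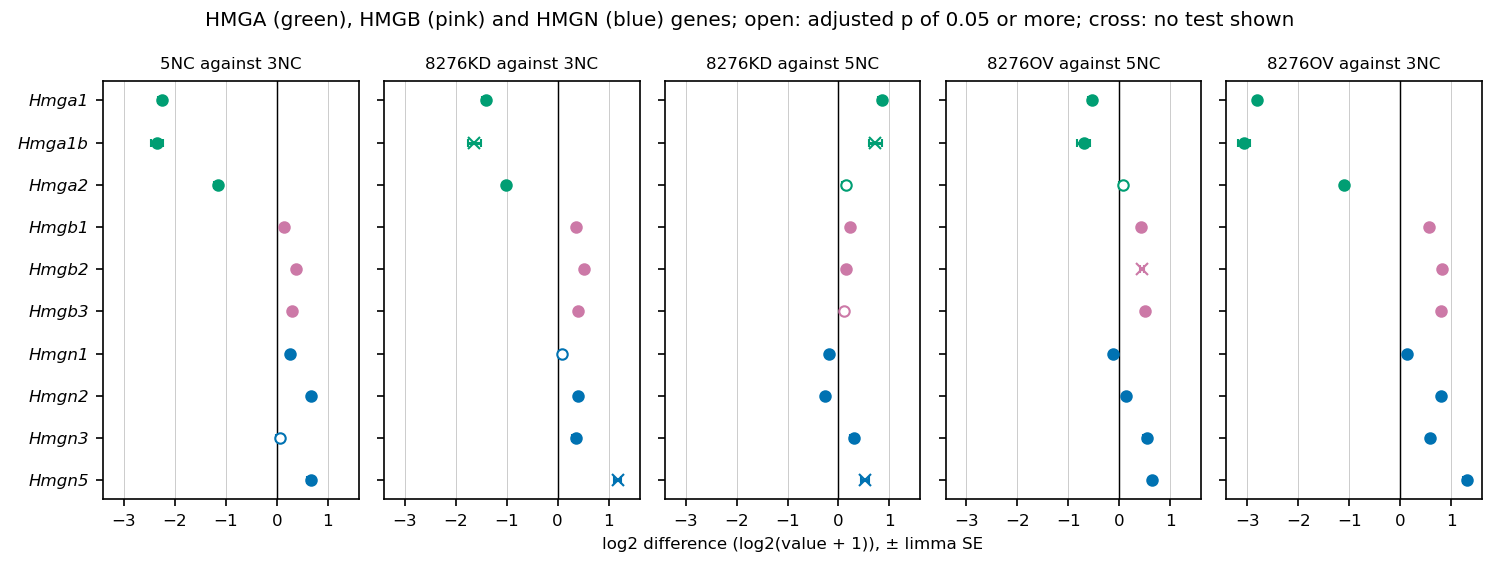
Log2 differences of log2(value + 1) with limma standard errors (horizontal axes) for the 10 genes in 5 comparisons of group means. Filled points have an adjusted p below 0.05, open points do not, and crosses are the values the family was selected on, shown without a test. The filled 5NC against 3NC points of Hmga1b and Hmgn5 are differences of such values. The filled 8276OV points of these genes, and the filled Hmgb2 points that involve 5NC or 8276OV, share libraries with such values. The filled 8276KD points of Hmga1 are those of a near copy of Hmga1b. All of these are descriptive only. Hmga1 is at -1.41 in 8276KD against 3NC and at 0.85 against 5NC.

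Hmgb1 encodes the most studied HMG-box protein, a DNA bender in the nucleus and an alarm signal outside the cell (gene 15289, chromosome 5, 149046702 to 149053057). Its values were 239, 238 and 232 in 3NC, 263, 251 and 265 in 5NC, 291, 317 and 301 in 8276KD, and 351, 351 and 345 in 8276OV. The groups did not overlap and rose in that order. Much of its sequence recurs: 28.3% of its 100-base words occur in transcripts of 50 other annotated genes, so its level is uncertain to that extent.

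Hmgb2, whose protein is abundant in germ cells and in dividing cells, lies on chromosome 8 (gene 97165, 57511843 to 57515999). It stood at 309.7, 327 and 308 in 3NC, at 416, 402 and 406 in 5NC, at 460.0, 449.7 and 438 in 8276KD, and at 559.8, 548 and 562 in 8276OV. The order was that of Hmgb1, with no overlap, and the mean of 8276OV (557 ± 7.19) was 1.77 times that of 3NC (315 ± 10.2). Hmgb2 was the highest HMG transcript in 8276OV, place 157 among the 17576 genes, and shared 20.0% of its words with other annotated transcripts.

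Hmgb3, an HMG-box gene of progenitor cells on chromosome X (gene 15354, 71555917 to 71560673), was lower by far. Its values were 39.4, 39.4 and 39.95 in 3NC, 46, 50.6 and 49.8 in 5NC, 55.6, 51.2 and 50.7 in 8276KD, and 70.4, 70.8 and 68.55 in 8276OV. These groups too did not overlap, with the same order of means, and 18.3% of its words occur elsewhere.

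The HMGB genes moved together, and the 250 bases before their starts are shown with the pentamer CCAAT, the recognition core of the factor NF-Y, in capitals on either strand (its reverse reads ATTGG). The 300-base windows of Hmgb1, Hmgb2 and Hmgb3 hold 3, 4 and 3 matches, all on the strand of the gene. Of 32851 RefSeq windows of that length, 37.4% hold CCAAT on either strand and 3.37% hold at least 3 matches. Hmgb1 has another RefSeq start with 0 matches, as have both Hmga1 windows and Hmga2. Hmgn1, Hmgn2, Hmgn5 and Hmga1b hold 2, 1, 2 and 1. The E2F-type octamers TTTCCCGC and TTTGGCGC, searched on both strands, occur in none of the windows of the 9 members with an entry, and in 1.07% and 0.514% of all windows. A match describes letters only, and a missing match says only that these letters are not in the window.
Hmgb1, chr5:149053058-149053307, minus strand: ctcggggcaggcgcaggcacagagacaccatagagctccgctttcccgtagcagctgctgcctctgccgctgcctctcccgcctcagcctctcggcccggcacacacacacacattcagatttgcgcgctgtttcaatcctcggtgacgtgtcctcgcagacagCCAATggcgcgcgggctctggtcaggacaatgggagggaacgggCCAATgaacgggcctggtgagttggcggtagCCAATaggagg
Hmgb2, chr8:57511593-57511842, plus strand: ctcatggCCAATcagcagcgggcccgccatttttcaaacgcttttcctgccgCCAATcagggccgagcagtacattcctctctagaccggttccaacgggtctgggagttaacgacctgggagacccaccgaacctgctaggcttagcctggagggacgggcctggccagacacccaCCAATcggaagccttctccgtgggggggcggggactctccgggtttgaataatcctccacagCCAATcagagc
Hmgb3, chrX:71555667-71555916, plus strand: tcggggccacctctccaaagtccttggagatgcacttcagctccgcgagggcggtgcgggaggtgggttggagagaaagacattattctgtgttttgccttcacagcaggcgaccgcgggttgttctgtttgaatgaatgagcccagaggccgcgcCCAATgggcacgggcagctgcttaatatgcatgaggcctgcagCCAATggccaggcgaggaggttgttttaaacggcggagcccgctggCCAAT
Relative to the start, the first base of each CCAAT match lies at -243, -198, -73 and -11 in Hmgb2, at -86, -42 and -11 in Hmgb1, and at -94, -51 and -5 in Hmgb3. Binding was not measured.

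Hmgb1 and Hmgb3 rose by 0.14 and 0.29 in 5NC against 3NC (adjusted p = 0.00945 and 1.65e-04), and Hmgb2 was at 0.37 (SE 0.0363). Hmgb1, Hmgb2 and Hmgb3 rose by 0.36, 0.51 and 0.40 in 8276KD against 3NC (SE 0.0391, 0.0363 and 0.0483, adjusted p = 1.35e-05, 2.74e-07 and 3.02e-05). Against 5NC the 8276KD values were smaller, at 0.22 (adjusted p = 3.46e-04), 0.14 (SE 0.0363) and 0.10 (adjusted p = 0.0823), so Hmgb3 was not called. In 8276OV against 5NC, Hmgb1 and Hmgb3 rose by 0.43 and 0.51 (adjusted p = 8.48e-07 and 1.03e-06) and Hmgb2 was at 0.45 (SE 0.0363). Against 3NC the 3 genes rose in 8276OV by 0.56, 0.82 and 0.81. After GC correction the 8276OV difference of Hmgb1 against 5NC was no longer called, that of Hmgb3 was, and Hmgb2 was at 0.074.

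Hmgn1, which binds nucleosomes and shapes their histone modifications, lies on chromosome 16 (gene 15312, 96121588 to 96127725). It was the highest member in 3NC and 5NC and level with Hmgb2 in 8276KD, at means of 449.6 and 449.4. Its values were 429, 429.7 and 415 in 3NC, 508, 509 and 512 in 5NC, 438, 453 and 458 in 8276KD, and 467, 451 and 479 in 8276OV. The 5NC libraries were above all others, 8276KD and 8276OV overlapped, and the means spanned only 1.20 times.

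Hmgn2, the closest relative of Hmgn1, had another order (gene 15331, chromosome 4, 133964739 to 133967991). It was at 248, 244 and 251 in 3NC, at 386, 396 and 397 in 5NC, at 321, 343 and 315 in 8276KD, and at 423, 445 and 425 in 8276OV. The groups did not overlap, 8276KD lay between 3NC and 5NC, and the share of HMGN transcripts that were Hmgn2 rose from 33.3% ± 0.925 in 3NC to 42.0% ± 1.42 in 8276OV. Other annotated transcripts hold 10.2% of its words, against 2.46% for Hmgn1.

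Hmgn3, an HMGN gene studied in endocrine cells, was lower (gene 94353, chromosome 9, 83109942 to 83147358). Its values were 50.5, 52.9 and 43.7 in 3NC, 47.9, 50.75 and 53.8 in 5NC, 62.4, 62.1 and 64.0 in 8276KD, and 73.7, 69.7 and 78.7 in 8276OV. The control groups overlapped, while 8276KD and 8276OV stood above both and apart from each other. None of its words occurs in another gene.

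Hmgn5 encodes a long HMGN protein with an acidic tail that unfolds chromatin by acting on linker histones (gene 50887, chromosome X, 109004537 to 109013380). It was at 21.8, 22.65 and 21.7 in 3NC, at 40.6, 33.0 and 33.3 in 5NC, at 47.3, 52.9 and 53.6 in 8276KD, and at 55.9, 56.0 and 56.2 in 8276OV. The order was that of the HMGB genes, without overlap, and the means of 8276OV (56.0 ± 0.164) and 3NC (22.0 ± 0.520) differed 2.54 times, the widest span outside HMGA. The word share with other genes was 13.3%.

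In 5NC against 3NC, Hmgn1 and Hmgn2 rose by 0.26 and 0.66 (adjusted p = 3.06e-05 and 1.20e-08), and Hmgn5 was at 0.66 (SE 0.0711). Hmgn3 was at 0.053 (SE 0.0680, adjusted p = 0.529). Without replicate 3 of 3NC, the lowest Hmgn3 library, that value was -0.026. In 8276KD against 3NC, Hmgn2 rose by 0.40 (adjusted p = 6.33e-06) and Hmgn3 by 0.36 (adjusted p = 0.00112), Hmgn1 was at 0.082 (adjusted p = 0.0832), and Hmgn5 was at 1.18 (SE 0.0711).

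Against 5NC the 8276KD differences split the subfamily. Hmgn3 rose by 0.30 (adjusted p = 0.00199), Hmgn5 was at 0.52 (SE 0.0711), and Hmgn1 and Hmgn2 fell by 0.18 and 0.27 (adjusted p = 7.50e-04 and 8.30e-05). In 8276OV against 5NC, Hmgn3 rose by 0.53 (adjusted p = 1.09e-05), Hmgn2 rose by 0.13 (adjusted p = 0.00865) and Hmgn1 fell by 0.13 (adjusted p = 0.00447). Hmgn5 was at 0.65 there (SE 0.0711), given without a test, since its 5NC values entered the selection. Against 3NC all 4 HMGN genes rose in 8276OV, by 0.13, 0.80, 0.59 and 1.31 for Hmgn1, Hmgn2, Hmgn3 and Hmgn5. With quantile normalization, which moved the median of all genes in 8276OV against 5NC from -0.088 to 0.029, Hmgn2 was at -0.0070 (adjusted p = 0.8848). With median-of-ratios factors Hmgn1 was at -0.038 (adjusted p = 0.337).

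Whichever control virus was used, several members kept their sign. In 8276OV, 7 members were higher and 3 lower against 3NC (33.5% and 41.7% of all genes, 75.2% together). In 8276KD, 6 were higher and 2 lower against 5NC (24.7% and 30.5% of all genes, 55.3% together). The 8276KD counts include Hmga1b and Hmgn5, on whose values the family was selected. Hmgb1 and Hmgn3 were higher and called in both manipulations against either control. After GC correction Hmgn3 stayed called in each of these. Hmgb1 was then not called against 5NC, at 0.082 in 8276OV and 0.15 in 8276KD (adjusted p = 0.300 and 0.0641). The 8276KD differences of Hmga1 and Hmgn2 had opposite signs against the 2 controls, and that of Hmgn2 was called against either. For Hmgn1 in 8276OV the signs were opposite and both called, -0.13 against 5NC and 0.13 against 3NC. The comparisons share libraries, so these are side-by-side values and not separate evidence.

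Summed over a subfamily, HMGA transcripts were at 189.5 ± 3.91 in 3NC, 38.6 ± 0.373 in 5NC, 63.5 ± 3.35 in 8276KD and 26.1 ± 3.72 in 8276OV. HMGB transcripts were lowest in 3NC, at 591 ± 12.3, 717 ± 11.2, 805 ± 13.8 and 976 ± 5.62 in the same groups, and between 5NC and 8276KD both the HMGA and the HMGB sums were higher in 8276KD. HMGN transcripts were at 743 ± 9.80, 989 ± 7.31, 890.2 ± 20.7 and 1027 ± 10.9. HMGA made up 12.4% ± 0.393 of the 10 members' summed value in 3NC and 1.29% ± 0.183 in 8276OV, and HMGB 38.8% ± 0.430 and 48.1% ± 0.387. These sums weigh the members by their FPKM, a level per transcript length. Hmga1b was the highest HMGA gene in each group.

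**Figure D3:**
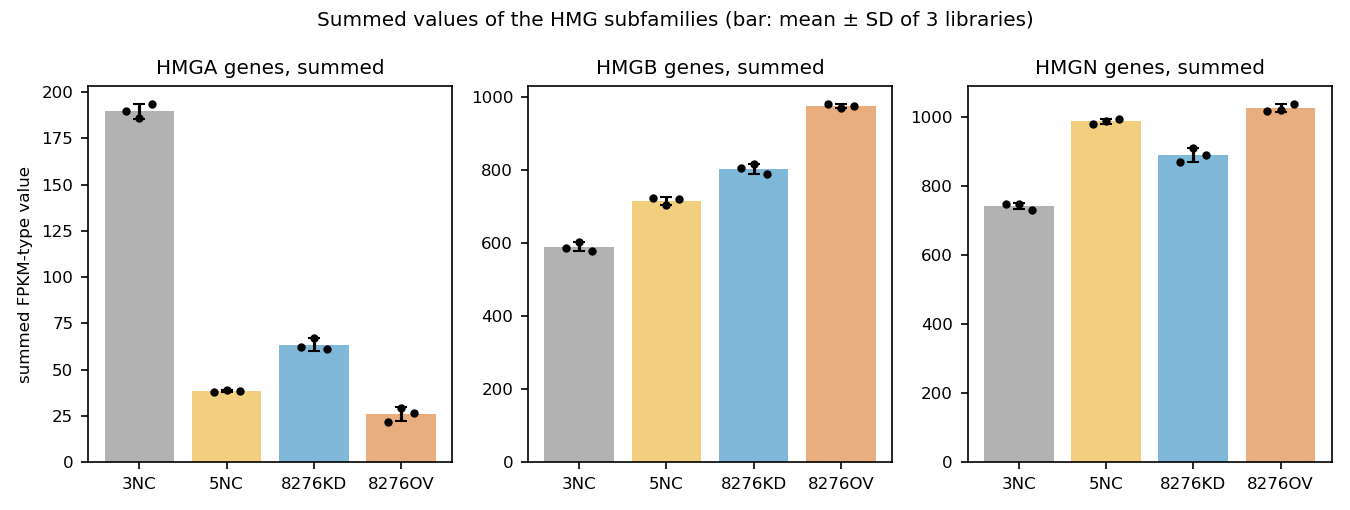
Summed FPKM-type values (vertical axes from 0) of the 3 HMGA, 3 HMGB and 4 HMGN genes by group. Bars are means ± SD of 3 libraries and points are libraries. HMGA is highest in 3NC at 189.5 and HMGB is highest in 8276OV at 976.

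The difference between the manipulations was tested as the overexpression effect (8276OV minus 5NC) minus the knockdown effect (8276KD minus 3NC). Each effect has its own control, so the difference of 5NC against 3NC enters this contrast with the opposite sign. Of the members 3 were higher and 3 lower, against 24.5% and 36.2% of all genes (60.6% together). The overexpression effect lay above the knockdown effect for Hmga1 by 0.87 (SE 0.0988), for Hmga1b by 0.93 (SE 0.168) and for Hmga2 by 1.08 (adjusted p = 2.91e-06). It lay below for Hmgn1 by -0.21 (adjusted p = 0.00265), for Hmgn2 by -0.26 (adjusted p = 0.00132) and for Hmgn5 by -0.53 (SE 0.101). For Hmgb1, Hmgb3 and Hmgn3 it was 0.070, 0.11 and 0.18 (SE 0.0553, 0.0683 and 0.0962, adjusted p = 0.288, 0.167 and 0.121), which does not show that the effects were alike. Hmgb2 was at -0.065 (SE 0.0513). The signs for the HMGA genes do not mean higher levels in 8276OV than in 8276KD. Hmga1 had means of 4.22 in 8276OV and 12.66 in 8276KD, and Hmga1b 16.37 and 44.99. Hmga2 had 5.51 and 5.89, with overlapping libraries. Their differences in 5NC against 3NC, -2.26, -2.36 and -1.16, made the contrast positive. Likewise Hmgn1, Hmgn2 and Hmgn5 lay below with higher means in 8276OV, 465.6, 430.8 and 56.05, than in 8276KD, 449.6, 326.5 and 51.28. GC correction moved Hmga1 to 1.504, Hmga1b to 1.46, Hmgn5 to -0.80 and Hmgb2 to -0.37, and Hmgn2, at 0.064, was no longer called (adjusted p = 0.255). With median-of-ratios factors 9 members were called, with Hmgb1 at 0.16, Hmgb3 at 0.20 and Hmgn3 at 0.27 (adjusted p = 0.0230, 0.0246 and 0.0277). Without replicate 3 of 3NC, Hmgn3 was called at 0.26 (adjusted p = 0.01889).

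GC content of the transcripts moved with the overexpression difference. Across 11197 tested genes, which are not independent replicates, Spearman's rho of the log2 difference with the GC content of the longest transcript was -0.79 for 8276OV against 5NC, -0.22 for 8276KD against 3NC and 0.11 for 5NC against 3NC. The members span much of that range: Hmgb2 has 38.7% G and C, Hmgb1 40.1%, Hmgn5 40.7%, Hmgn3 44.4%, Hmga2 45.7%, Hmgn1 46.9%, Hmgb3 47.3%, Hmgn2 54.2%, Hmga1b 58.5% and Hmga1 61.4%, around a median of 49.7% over the genes tested. In 8276OV against 5NC the median gene with 35 to 40% was at 0.41, and the median gene at or above 60% was at -0.76.

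After each library was corrected for transcript GC content, 5 of the 10 members were called in 8276OV against 5NC, beside 54.8% of the 11197 genes with a GC value. Hmgn2 rose by 0.51 (adjusted p = 1.25e-08), where it had been at 0.13, and Hmgb3 by 0.44 (adjusted p = 7.69e-07). Hmgn3 rose by 0.32 (adjusted p = 3.94e-04), Hmgn5 was at 0.32 (SE 0.0871), and Hmgn1 fell by 0.23 (adjusted p = 2.88e-05). Hmgb1 was at 0.082 (adjusted p = 0.300) and Hmgb2 at 0.074 (SE 0.0513). Hmga1 was at 0.19 (adjusted p = 0.0564), opposite to its fall before correction, with Hmga1b at -0.085 (SE 0.0753) and Hmga2 at -0.091 (adjusted p = 0.221).

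In 8276OV against 3NC the correction moved Hmga1 from -2.80 to -2.16, Hmga1b from -3.06 to -2.52 and Hmga2 from -1.095 to -1.26. Hmga1, Hmga1b and Hmga2 were at -2.36, -2.43 and -1.17 in 5NC against 3NC, and at -1.31, -1.54 and -1.04 in 8276KD against 3NC. Hmgb1 in 5NC against 3NC was no longer called (0.14, adjusted p = 0.0632). In 8276KD against 5NC, Hmgb1 was no longer called after it (0.15, adjusted p = 0.0641) and Hmgb3 was, at 0.11 (adjusted p = 0.0292). Hmgb2 was at 0.052 there (SE 0.0513).

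**Figure D4:**
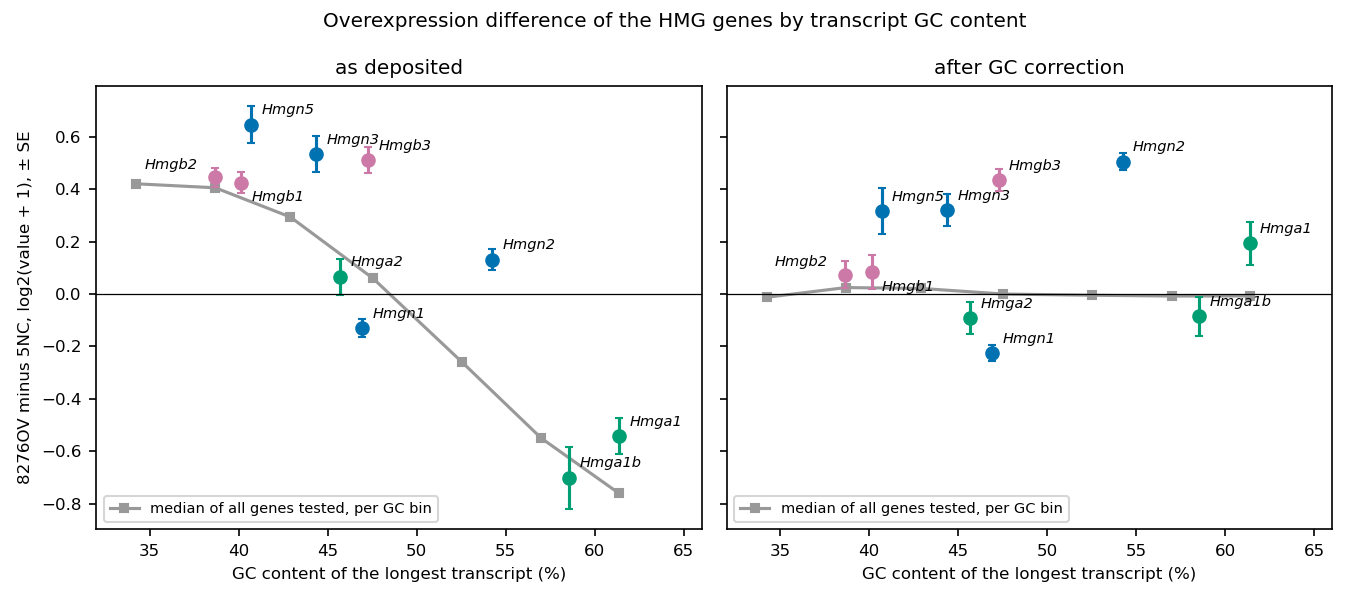
Log2 difference of 8276OV minus 5NC with its standard error (vertical axes) against the GC content of the longest transcript (horizontal axes), as deposited and after GC correction, for the 10 genes. Grey squares are medians of all tested genes per GC bin, from 0.42 to -0.76 as deposited. Hmgb2, Hmgb1, Hmga2 and Hmga1b lie near the grey line, and Hmgn2 at 54.2% lies above it in both panels.

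The genes whose values over the 12 libraries were most like the widest-ranging members were taken by Pearson's r of log2(value + 1) among the genes tested. For Hmga1b these were Slc2a1, a glucose transporter gene (r = 0.997), Phlda1 (r = 0.994) and Eno2, a glycolytic enolase gene (r = 0.993). For Hmga1 they were Egln3, an oxygen-sensing hydroxylase gene (r = 0.995), Lrig1, a brake on growth factor receptors (r = 0.994), and Rnf181, a ubiquitin ligase gene (r = 0.994). Slc2a1 had means of 52.7 in 3NC, 17.1 in 5NC, 25.4 in 8276KD and 12.2 in 8276OV, and Egln3 had 34.0, 9.31, 16.5 and 6.14. The r values rest on 4 group levels and are descriptive, since libraries of a group are close to each other.

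Other HMG-box genes showed no common direction. Values of this and the later gene lists were not corrected for GC content, with which the 8276OV differences moved. Tests covered 22 of the 27 listed in the data, of which 7 rose and 10 fell in 8276OV against 5NC and 4 rose and 5 fell in 8276KD against 3NC, with medians of -0.089 and -0.062 beside -0.088 and -0.0048 over all genes. For this and the later lists, 30.3% of all genes were higher and 44.1% lower in 8276OV against 5NC. In 8276KD against 3NC the shares were 20.0% and 19.5%, and against 5NC they were 24.7% and 30.5%. Tfam, which packages mitochondrial DNA, rose by 0.55 in 8276OV, and Hmg20b, a subunit of a histone demethylase complex, and Sox12 were at -1.065 and -0.9995. In 8276KD, Tcf7l2, a Wnt effector, rose by 0.49, and Cic, a repressor downstream of ERK, and Tox4 fell by 0.41 and 0.25. Against 5NC, 3 of the 22 were higher and 7 lower in 8276KD, with Tcf7l2 at -0.31 (adjusted p = 0.0190) and Cic at -0.19 (adjusted p = 0.0691).

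Linker histones, HP1 and other abundant chromatin proteins had 17 tested genes of 22, with 6 higher and 7 lower in 8276OV and 6 higher and 2 lower in 8276KD against 3NC (medians -0.0074 and -0.043). With 5NC as control, 3 were higher and 5 lower in 8276KD (median -0.069). H1f0, a replacement linker histone, fell by 1.22 in 8276OV, and Nucks1 and Ncl, the nucleolin gene, rose by 0.60 and 0.50. In 8276KD, H2afz, a histone variant gene, rose by 0.41, Nucks1 by 0.39 and Ncl by 0.21, and against 5NC H2afz was at -0.080 (adjusted p = 0.115). All 17 histone chaperone genes were tested, with 7 higher and 5 lower in 8276OV and 5 higher and 1 lower in 8276KD against 3NC (medians 0.045 and 0.0033). With 5NC as control, 5 were higher and 4 lower in 8276KD (median -0.015). Nasp, which carries linker histones, rose by 0.45 and 0.47 in the 2 arms. Npm1 and Supt16, a subunit of the FACT complex, rose by 0.70 and 0.39 in 8276OV, and Asf1a and Anp32b by 0.32 and 0.31 in 8276KD against 3NC. Anp32b fell by 0.50 in 8276KD against 5NC (adjusted p = 2.97e-05) and by 0.45 in 8276OV, and Asf1a was at 0.087 in 8276KD against 5NC (adjusted p = 0.268).

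Receptors and binding partners of HMGB1 were sparse, with 5 tested of 7 in the table. In 8276OV, Cd24a, Tlr2 and Tlr4 rose by 0.41, 0.47 and 0.44 and Sdc1 fell by 0.45, before any GC correction. The list median was 0.41, beside -0.088 over all genes. In 8276KD against 3NC, Tlr4 rose by 0.30 (adjusted p = 0.0436), Tlr2 was at 0.13 and Cd24a at 0.073 (adjusted p = 0.131 and 0.300), with a list median of 0.10. Against 5NC, Cd24a rose by 0.30 in 8276KD (adjusted p = 3.28e-04) and Tlr4 was at 0.15 (adjusted p = 0.262).

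Among genes around HMGA2 and let-7, 13 of 16 were tested, of which 3 rose and 4 fell in 8276OV, 4 rose and 1 fell in 8276KD, and 1 rose and 7 fell in 5NC against 3NC (medians -0.054, -0.055 and -0.16). Of all genes, 30.6% were higher and 25.9% lower in 5NC against 3NC, with a median of 0.022. Igf2bp2, an RNA-binding protein gene activated by HMGA2, fell by 0.48 in 8276OV against 5NC and was at -0.11 in 8276KD (adjusted p = 0.0758). Igf2bp3 rose by 0.81 and Nras by 0.60 in 8276OV, and against 3NC Igf2bp3 was at -0.073 (adjusted p = 0.427). In 8276KD, Nras rose by 0.17 and Myc fell by 0.38. Against 5NC, 9 of these genes were higher and 1 lower in 8276KD, with a median of 0.24. Of all genes, 24.7% were higher and 30.5% lower there, with a median of -0.031.

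Proliferation genes were compared because Hmgb2 and Hmgn2 are known to be high in dividing cells. Of 18 tested, 9 rose and 5 fell in 8276OV against 5NC, and 11 rose and 4 fell in 8276KD against 3NC. The medians were 0.12 and 0.16, beside -0.088 and -0.0048 over all genes. With 5NC as control, 8 were higher and 7 lower in 8276KD, and the median was 0.046, beside -0.031 over all genes. Birc5 and Ccnb1, genes of mitosis, rose by 0.53 and 0.47 in 8276OV and Mcm2, a replicative helicase subunit, fell by 0.62. Rrm2, Ccna2 and Stmn1 rose by 0.39, 0.25 and 0.19 in 8276KD against 3NC. Against 5NC, Stmn1 fell by 0.27 in 8276KD (adjusted p = 1.79e-04) and Rrm2 was at 0.089 (adjusted p = 0.164), and Birc5 in 8276OV was at 0.073 against 3NC (adjusted p = 0.116). In 5NC against 3NC, where Hmgb2 was at 0.37, 8 of the proliferation genes rose and 5 fell, with Birc5 lower by -0.45 (adjusted p = 6.12e-07), and the median was 0.054. The part of cell division in the HMG differences was not tested.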

How the data were processed

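RNA-seq of 12 libraries was analysed. The authors deposited a table with a value per gene and library, read as FPKM from the values (2 decimals, unequal column sums); no label names the unit. Whole-read steps were not clear in the low values, so the depth of each library is unknown. The submitters' processing notes name mm10 as the build. Aligner, quantifier and the treatment of ambiguous reads: not given in the sources used here.

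Genes with at least 1 in at least 3 libraries (11360) were tested as log2(value + 1) with limma 3.58.1 in R 4.3.3 (lmFit on 4 group means, eBayes with trend and robust), two-sided, with Benjamini-Hochberg adjustment over all genes and a threshold of 0.05. On this log2(value + 1) scale, fold changes of low genes come out too small. An exact permutation test of 3 against 3 libraries cannot go below 0.1. Symbols turned into dates (25) or shared by identifiers (3) were replaced by RefSeq symbols. For GC correction, each library's deviations from the gene means were fitted by a natural spline (5 degrees of freedom) in transcript GC content (longest transcript per gene, GENCODE M21), and the fit was subtracted. Positions and promoters are RefSeq GRCm38.p6, the assembly of mm10; 9 members had a promoter entry. The fit was tested on simulated data.

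The members and gene lists were chosen with earlier results of these data known. All 10 members are named; from each of 6 lists, up to 3 genes with the smallest p in 8276OV against 5NC and 3 in 8276KD against 3NC; and 3 genes most correlated with each of the 2 widest-ranging members. A gene that this rule names is not reported here. Alternatives were other pseudocounts, filters, scalings, controls, a replicate block, GC correction, the summed Hmga1 pair and leaving out each library. The other control combined with GC correction was added after the data were seen.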

Additional observations from a re-analysis of the deposited data

How the results depend on the processing

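The 9 of 10 members called in each of 5NC against 3NC, 8276KD against 3NC and 8276OV against 5NC stayed 9 whichever library was left out, and the 6 called for the difference between the arms ranged from 6 to 7, with 9 under median-of-ratios factors. All member counts here include Hmga1b, Hmgn5 and Hmgb2, on whose values the family was selected, and are no support for the calls. Genes called in the whole table ranged from 5592 to 5703, from 3428 to 5008 and from 7781 to 8496 without a library. GC correction left 5 members called in 8276OV against 5NC, alone and with a replicate block, beside 54.8% and 53.9% of all genes. Beside the values in the report, signs turned as follows. In 8276OV against 5NC with GC correction Hmga1 was at 0.19 and Hmga2 at -0.091, the same with the block added; against 3NC Hmga2 was at -1.095 and Hmgn1 at 0.13, against both controls -0.51 and 0.00098, and against 3NC with GC correction -1.26 and 0.020; with quantile normalization Hmgn2 was at -0.0070. In 8276KD against 5NC Hmga1, Hmga1b, Hmga2, Hmgn1 and Hmgn2 were at 0.85, 0.73, 0.15, -0.18 and -0.27, with GC correction at 1.05, 0.89, 0.13, -0.18 and -0.16, and against both controls Hmgn1 was at -0.049. With the control changed and GC correction, 6799 genes were called for 8276KD, against 4477. For the difference between the arms, GC correction, alone and with the block, put Hmgb1 at -0.21 and Hmgn2 at 0.064, and median-of-ratios factors put Hmgb2 at 0.023. Hmgn3 in 5NC against 3NC ranged from -0.026 (without 3NC replicate 3) to 0.11 (without 3NC replicate 2). The causes were not tested. The replicate numbers mark no shared culture or day in the labels, and same-numbered libraries correlated from -0.25 to 0.59 in their deviations from group means, with 0 of 12 libraries correlating best with its own number in every other group. Libraries of unlike number correlated from -0.60 to 0.36. Between 8276KD and 8276OV, same-numbered libraries correlated at 0.47, 0.59 and 0.029 for replicates 1, 2 and 3, so some shared structure is not excluded. With the replicate block 9, 9, 9 and 6 members were called in the 4 tests, and 6380, 4434 and 8407 genes in 5NC against 3NC, 8276KD against 3NC and 8276OV against 5NC. Unknown depth limits any statement on single reads.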
